A study of Mus musculus with 8 samples.

Results

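Ep300, Crebbp, Cited1, Cited2 and Cited4 are the mouse genes for p300, for its paralogue CBP and for the CITED proteins that bind to both. They were taken by symbol from the gene count table, which gave 5 of 53700 genes, and 4 of the 5 (Cited4 was the exception) passed the filter on low counts together with 13933 genes in all. The genes were followed in Lewis lung carcinoma (LLC) cells, a mouse lung tumor cell line, by RNA-Seq of WT and FIH-KO cells in normoxia (21% O2) and in hypoxia (1% O2). FIH-KO cells had been made from LLC cells with a CRISPR/Cas9 guide that cuts exon 2 of Hif1an (the FIH gene), cells were then cloned by dilution to single cells, and the number of clones behind the FIH-KO libraries is not stated. The loss of FIH and differences between clones therefore cannot be told apart here. The effect of FIH-KO means below the difference between FIH-KO and WT cells. Cells were cultured for 16 hours, without any other treatment, and each of the 4 groups (WT normoxia, WT hypoxia, FIH-KO normoxia and FIH-KO hypoxia) had 2 libraries, 8 in all.

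FIH is an oxygen-dependent hydroxylase that modifies an asparagine in the C-terminal transactivation domain of HIF-α. The unmodified domain binds the CH1 (TAZ1) domain of p300 and CBP, histone acetyltransferases that many transcription factors recruit, and the hydroxyl group hinders that binding. CITED2 binds the same CH1 domain with high affinity and displaces HIF-α from it, and its gene is a known HIF target. CITED1 and CITED4 share the CH1-binding C-terminal region and act as transcriptional coactivators that bind no DNA themselves.

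Library totals ran from 14519731 to 18177016 counts, and levels are given as CPM, each count scaled to the TMM-adjusted size of its library. Hif1an RNA was lower in the FIH-KO libraries (mean 36.2 against 83.4 CPM in normoxia, and 48.3 against 87.1 CPM in hypoxia) and fell by 1.20 and by 0.85 on the log2 scale (adjusted p = 3.1e-05 and 0.00031, edgeR). Among the markers of LLC cells, Krt8, Krt18, Vim and Fn1 were expressed, whereas the epithelial genes Epcam and Cdh1 reached at most 1 count. Fn1 (1.68 in normoxia and 1.10 in hypoxia on the log2 scale), Krt8 (1.02 and 1.00) and Vim (0.52 and 0.58) were themselves higher in FIH-KO cells in both oxygen conditions (edgeR). Of 12 markers of other cell types, Cd3e and Adgre1 were at 0 and Ptprc and Kdr reached at most 3 counts in any library. Pecam1 (0 to 8 counts) and Cdh5 (0 to 35) were not detected in every library. Pdgfra (111 to 427 counts), Cd68 (41 to 115), Dcn (9 to 83), Col1a1 (3 to 26), Lyz2 (2 to 107) and Acta2 (4 to 824) were detected in each library. Of these markers 7 were tested, and FIH-KO cells had 2 higher and 0 lower in normoxia and 2 higher and 2 lower in hypoxia. Of all tested genes 15.2% were higher and 13% lower in normoxia, and 14.1% and 13.9% in hypoxia. The smooth muscle actin gene Acta2 was higher with FIH-KO (3.10 in normoxia and 2.96 in hypoxia, adjusted p = 0.0034 and 0.0498, edgeR). Under hypoxia Acta2 was lower (-3.29 in WT and -3.43 in FIH-KO cells, adjusted p = 0.025 and 0.0040, edgeR). The summed level of these 12 markers was 34.7 to 36.4 CPM in WT normoxia and 42.8 to 80.2 CPM in FIH-KO normoxia, against 23.6 to 33.1 CPM in WT hypoxia and 19.1 to 30.1 CPM in FIH-KO hypoxia. The part of these LLC and other markers in the results was not tested.

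Crebbp rose in FIH-KO cells in normoxia and did not pass the test in hypoxia, and Cited1, nearly absent from WT cells, was higher in the FIH-KO libraries in both oxygen conditions. Crebbp and Cited2 rose under hypoxia in WT cells, and no member passed the test of hypoxia in FIH-KO cells. Ep300 passed no test. In normoxia, 2 of the 4 tested members were called higher in FIH-KO cells and 0 lower, where 15.2% of all tested genes were called higher, 13% lower and 28.2% in either direction (adjusted p under 0.05, edgeR's quasi-likelihood test). One of them, Cited1, passed the filter on low counts only through its FIH-KO libraries, so the count is no evidence about the members as a set; with at least 10 counts required in every library, 1 member was called in normoxia and 0 in hypoxia. The shares of all genes also move with single libraries, from 3933 genes called in normoxia to 1735 without WT normoxia replicate 1, 1893 without FIH-KO normoxia replicate 1 and 2080 without WT normoxia replicate 2. In hypoxia the genotype comparison called 1 of 4 higher, again Cited1, beside 14.1% of all tested genes higher, 13.9% lower and 28% in either direction. Hypoxia in WT cells called 2 of 4 higher (16.9% of all genes higher, 15.5% lower, 32.4% in either direction), and hypoxia in FIH-KO cells called 0 of 4 (8.84% higher, 8% lower, 16.8% in either direction), although Crebbp had an unadjusted p of 0.029 there. The effect of FIH-KO in hypoxia was also set against its effect in normoxia, as an interaction term, which called 0 members and 0% of all genes by edgeR. Across all genes, 925 (6.64%) had an unadjusted p under 0.05 in that comparison and DESeq2 called 40, none of them a member. As nothing states that the libraries of a group came from separate cultures, the p values measure the spread between these libraries, which may be technical, and in bulk RNA fewer cells that express a gene and less RNA per cell cannot be told apart.

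**Figure D1:**
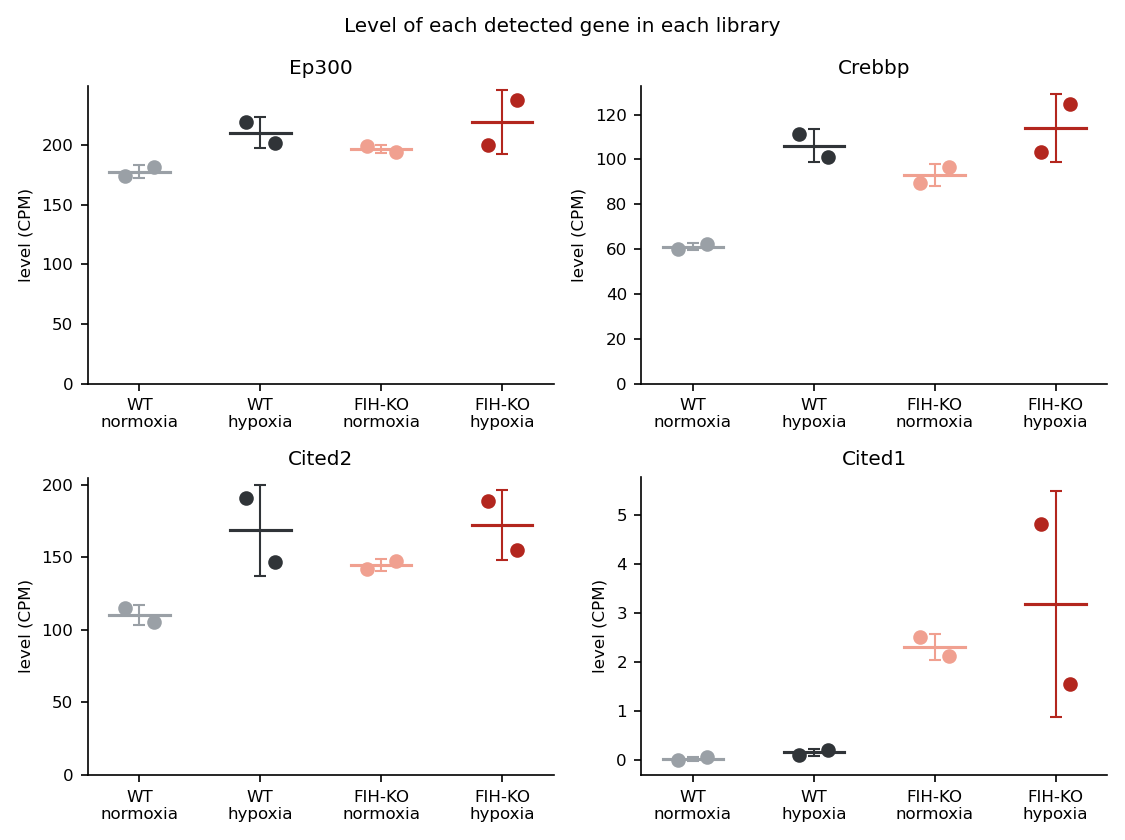
Level of Ep300, Crebbp, Cited2 and Cited1 in each library, in CPM on linear axes that differ between genes; points are libraries, long bars are group means and whiskers are the SD (n = 2). Crebbp and Cited2 are lowest in the WT normoxia libraries, and Cited1 stays at or under 0.205 CPM in every WT library.

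Of the detected members, Ep300 spanned the smallest relative range over the 8 libraries. Ep300 (ENSMUSG00000055024.13) lies on the plus strand of GRCm39 at chr15:81469540-81537206. Its level was 174 and 182 CPM in the WT normoxia libraries, 220 and 202 CPM in WT hypoxia, 199 and 194 CPM in FIH-KO normoxia, and 200.2 and 238 CPM in FIH-KO hypoxia. The WT normoxia libraries were thus the lowest of the 8, and the hypoxia libraries of both genotypes overlapped. The FIH-KO to WT log2 ratio was 0.14 in normoxia (standard error 0.11, 95% interval -0.10 to 0.39, edgeR's adjusted p = 0.38), whereas hypoxia gave 0.06 (standard error 0.11, interval -0.19 to 0.30, adjusted p = 0.75, edgeR). Hypoxia against normoxia gave 0.24 in WT cells (interval -0.0041 to 0.49, adjusted p = 0.12, edgeR) and 0.16 in FIH-KO cells (interval -0.09 to 0.40, adjusted p = 0.39, edgeR). The interval for genotype in normoxia leaves room for a rise of up to 1.31-fold and for a fall to 0.930 of the WT level. With only the 4 WT libraries in the fit, the hypoxia difference passed the threshold (log2 fold change 0.25, adjusted p = 0.038, edgeR).

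CBP RNA passed the test for genotype in normoxia and for oxygen in WT cells. Crebbp (ENSMUSG00000022521.11, minus strand, chr16:3899192-4031861) was measured at 59.9 and 62.1 CPM in WT normoxia and at 111 and 101 CPM in WT hypoxia. In FIH-KO cells it stood at 89.4 and 96.7 CPM in normoxia and at 103 and 125 CPM in hypoxia. The normoxia libraries of the genotypes did not overlap, and the hypoxia libraries did. The same held for Ep300 and Cited2, which were not called between genotypes in normoxia. Crebbp rose 1.53-fold in FIH-KO cells in normoxia (log2 fold change 0.61, standard error 0.12, 95% interval 0.35 to 0.87, adjusted p = 0.0031, edgeR). In hypoxia the same comparison gave 0.10 (standard error 0.12, interval -0.15 to 0.36, adjusted p = 0.56, edgeR). Under hypoxia Crebbp rose 1.74-fold in WT cells (log2 fold change 0.80, standard error 0.12, interval 0.54 to 1.06, adjusted p = 0.00053, edgeR), while in FIH-KO cells the difference was 0.29 (interval 0.03 to 0.55, adjusted p = 0.11, edgeR). The difference between the effects of FIH-KO in hypoxia and in normoxia was -0.51 (interval -0.87 to -0.14, unadjusted p = 0.011, adjusted p = 0.58, edgeR), so the effect is not shown to differ between oxygen conditions after adjustment. Without WT normoxia replicate 1 the genotype difference in normoxia was 0.55 and missed the threshold (adjusted p = 0.055, edgeR), and without FIH-KO hypoxia replicate 1 the hypoxia difference in FIH-KO cells reached 0.45 (adjusted p = 0.038, edgeR).

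CITED2, the competitor of HIF-α for the CH1 domain, is encoded by a short gene, Cited2 (ENSMUSG00000039910.11, plus strand, chr10:17598966-17601792). The 250 bases before its RefSeq start are shown because Cited2 is a known HIF target and hypoxia is one of the treatments. The sequence comes from the RefSeq promoter table, built on GRCm38.p6, and was placed in GRCm39 by an exact match at chr10:17598726-17598975 on the plus strand, with the last 10 bases inside an annotated exon. The HIF-binding core was searched as ACGTG and GCGTG on both strands, and capitals mark a palindromic CACGTG that holds ACGTG on each strand, between 153 and 148 bases upstream of the start.
Cited2: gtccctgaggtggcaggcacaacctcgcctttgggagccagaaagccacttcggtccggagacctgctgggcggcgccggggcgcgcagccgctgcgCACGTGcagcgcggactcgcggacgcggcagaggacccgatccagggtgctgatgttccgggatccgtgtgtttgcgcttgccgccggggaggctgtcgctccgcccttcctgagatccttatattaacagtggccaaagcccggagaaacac
A CACGTG was found in 6.02% of the 32851 promoter windows of the same length, and a core of either spelling in 38.6%. A match in this window is a match of letters, since binding was not measured.

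Cited2 levels were 115 and 105 CPM in WT normoxia, 191 and 146 CPM in WT hypoxia, 142 and 148 CPM in FIH-KO normoxia, and 189 and 155 CPM in FIH-KO hypoxia. Both WT normoxia libraries were below the other 6, and the hypoxia libraries of the genotypes covered nearly the same range. Cited2 rose 1.53-fold under hypoxia in WT cells (log2 fold change 0.61, standard error 0.14, 95% interval 0.31 to 0.92, adjusted p = 0.0061, edgeR). In FIH-KO cells the hypoxia difference was 0.25 (standard error 0.14, interval -0.05 to 0.55, adjusted p = 0.25, edgeR). FIH-KO against WT gave 0.39 in normoxia (standard error 0.14, interval 0.09 to 0.70, adjusted p = 0.055, edgeR) and 0.03 in hypoxia (interval -0.28 to 0.33, adjusted p = 0.91, edgeR). The difference between these genotype effects was -0.36 (interval -0.80 to 0.07, adjusted p = 0.80, edgeR). The normoxia value lay at the threshold, with an adjusted p from 0.013 to 0.066 over the 7 other settings (DESeq2 gave 0.043) and from 0.028 to 0.31 when 1 library was left out. The hypoxia call in WT cells was lost without WT hypoxia replicate 1 (0.37, adjusted p = 0.11) or without WT normoxia replicate 2 (0.51, adjusted p = 0.090, edgeR).

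CITED1 is a coactivator best known for its part in SMAD and estrogen receptor transcription, and its gene was nearly silent in WT cells. Cited1 (ENSMUSG00000051159.17) lies on the minus strand at chrX:101290985-101295803. It had 0 and 1 counts in the WT normoxia libraries and 2 and 3 counts in WT hypoxia. The FIH-KO libraries held 42 and 38 counts in normoxia and 77 and 24 counts in hypoxia. In CPM the FIH-KO libraries were at 2.50 and 2.13 in normoxia and at 4.81 and 1.56 in hypoxia, and the WT libraries at 0 and 0.0592 in normoxia and 0.112 and 0.205 in hypoxia. Every FIH-KO library thus exceeded every WT library, and Cited1 passed the filter on low counts only through its FIH-KO libraries. The genotype comparison gave an adjusted p of 0.0008 in normoxia and of 0.00098 in hypoxia (edgeR), which is given as a description, since entry to the test depended on the group where the gene was high. The fitted log2 fold changes of 5.92 (standard error 0.94) and 4.31 (standard error 0.70) depend on the prior count, so the ratio of depth-scaled counts is given with its exact interval, which covers counting error only. In normoxia 80 counts against 1 gave a ratio of 74.9 (95% interval 13.1 to 2994), and in hypoxia 101 counts against 5 gave 20.9 (8.67 to 65.8). The hypoxia ratio was 10.2 without FIH-KO hypoxia replicate 1 and 31.3 without replicate 2 of that group. The normoxia ratio was 39.0 without WT normoxia replicate 1, and without WT normoxia replicate 2 no WT count was left and the lower bound of the interval was 9.51.

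Hypoxia itself did not pass the test for Cited1. In FIH-KO cells 101 counts in hypoxia against 80 in normoxia gave a ratio of 1.39 (counting interval 1.03 to 1.89), but the 2 hypoxia libraries lay on either side of the normoxia ones and the fitted log2 fold change was 0.47 (standard error 0.46, adjusted p = 0.54, edgeR). Its sign turned without FIH-KO hypoxia replicate 1 (-0.54). In WT cells 5 counts against 1 gave a ratio of 4.99 (counting interval 0.559 to 236), which these counts cannot separate from no difference (adjusted p = 0.33, edgeR). The difference between the genotype effects in hypoxia and in normoxia was -1.61 (standard error 1.59, adjusted p = 0.88, edgeR). The promoter of the gene is shown for comparison with that of Cited2, from the most upstream of its RefSeq starts, at chrX:101295788-101296037 of GRCm39 and read on the minus strand (the last 16 bases are exonic). Capitals mark CACGC, which is GCGTG on the opposite strand, at 113 to 109 and at 29 to 25 bases upstream of the start.
Cited1: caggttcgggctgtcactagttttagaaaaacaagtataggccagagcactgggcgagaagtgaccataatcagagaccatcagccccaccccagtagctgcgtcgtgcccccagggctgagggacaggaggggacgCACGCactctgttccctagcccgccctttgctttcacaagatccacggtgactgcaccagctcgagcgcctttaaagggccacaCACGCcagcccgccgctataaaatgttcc
Windows with at least 2 cores made up 16.7% of all promoter windows, a share in which a single palindromic CACGTG counts as 2 cores. The windows of the other RefSeq starts of Cited1, farther downstream and partly exonic, held 1 and 0 cores.

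CITED4, a coactivator of AP-2 transcription factors, had no detectable RNA in these cells. Cited4 (ENSMUSG00000070803.7, plus strand, chr4:120523769-120525017) had 0 counts in each of the 8 libraries, 0 of 131118070 counts in all. A count of 0 allows up to 3 counts over the libraries together, or 0.0229 CPM. The gene was therefore not tested, and at this depth it was not detected in FIH-KO or WT cells in either oxygen condition. Its promoter window, at chr4:120523510-120523759 on the plus strand and outside annotated exons, holds a GCGTG between 44 and 40 bases upstream of the start, in capitals.
Cited4: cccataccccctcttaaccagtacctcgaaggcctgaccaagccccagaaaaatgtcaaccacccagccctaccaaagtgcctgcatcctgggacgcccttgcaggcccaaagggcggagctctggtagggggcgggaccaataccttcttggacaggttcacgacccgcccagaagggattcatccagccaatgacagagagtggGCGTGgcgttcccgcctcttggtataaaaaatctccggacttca
A core thus stood before the start of the silent Cited4 too. The windows of Ep300 and Crebbp in the same table hold 0 cores and lie wholly inside annotated exons, so they are not printed.

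**Figure D2:**
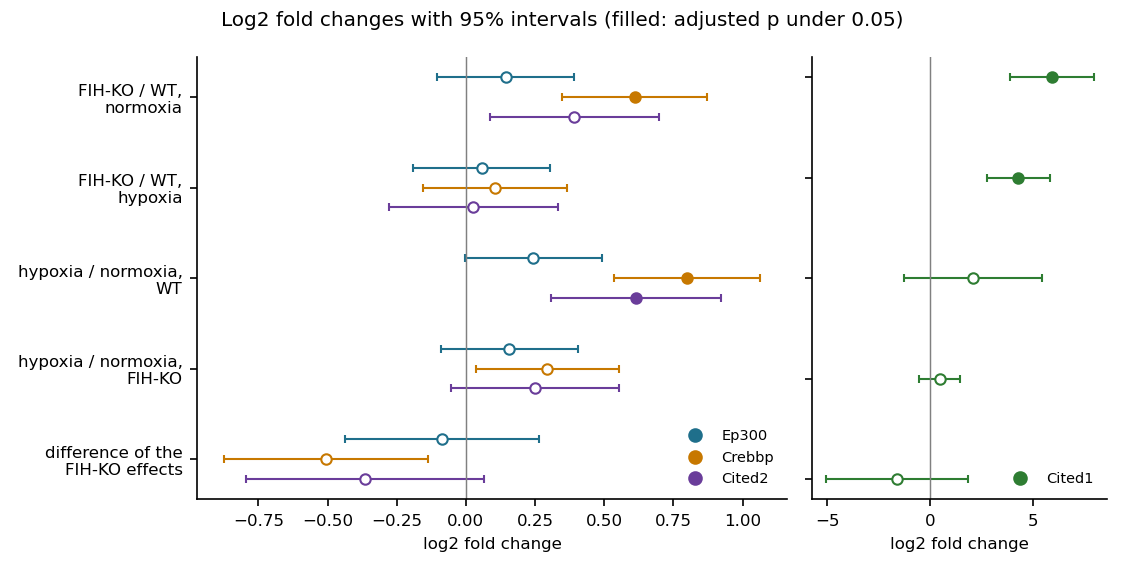
Log2 fold changes of the 4 tested members (left panel Ep300, Crebbp and Cited2, right panel Cited1 on a wider axis) with 95% intervals from edgeR; filled points have an adjusted p under 0.05, and the lowest row is the effect of FIH-KO in hypoxia minus that in normoxia. Crebbp in normoxia (0.61) and under hypoxia in WT cells (0.80) and Cited2 under hypoxia in WT cells (0.61) are the filled points of the left panel.

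Levels of different genes were compared per kb of annotated exons, since Ep300 (15309 bases of exons) and Crebbp (13540 bases) are much longer than Cited2 (2827 bases) and Cited1 (1881 bases). Per length, Cited2 was the most abundant member in each library. Its mean level was 39.0 CPM per kb in WT normoxia, 59.7 in WT hypoxia, 51.2 in FIH-KO normoxia and 60.8 in FIH-KO hypoxia. Ep300 followed with means of 11.6, 13.8, 12.8 and 14.3 CPM per kb in the same order, and Crebbp with 4.50, 7.84, 6.87 and 8.43 CPM per kb. Cited1 came last of the detected members, with means of 0.0157 and 0.0842 CPM per kb in WT normoxia and hypoxia and of 1.23 and 1.69 CPM per kb in the FIH-KO groups. The order Cited2, Ep300, Crebbp, Cited1 was the same in all 4 groups. Ep300 made up 72.0 to 72.2% of the summed Ep300 and Crebbp level per kb in the WT normoxia libraries, 63.6 to 63.9% in WT hypoxia, 64.0 to 66.3% in FIH-KO normoxia and 62.8 to 63.1% in FIH-KO hypoxia. WT normoxia was thus the group with the largest share of p300 transcript, by more than the range within any group.

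Cited2 made up 96.3 to 100% of the summed CITED level per kb. Cited1 contributed at most 0.0843% in WT normoxia and at most 0.210% in WT hypoxia, against 2.12 to 2.58% in FIH-KO normoxia and 1.49 to 3.68% in FIH-KO hypoxia. The sum of the CITED genes was 2.24 to 3.35 times that of Ep300 and Crebbp over the 8 libraries. This ratio was 2.27 to 2.57 in WT normoxia, 2.52 to 2.99 in WT hypoxia, 2.62 to 2.69 in FIH-KO normoxia and 2.24 to 3.35 in FIH-KO hypoxia, and the FIH-KO hypoxia libraries alone spanned the whole range. These shares rest on the annotated exon length, and with the length of the longest transcript in its place the ratio was 1.91 to 2.90.

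**Figure D3:**
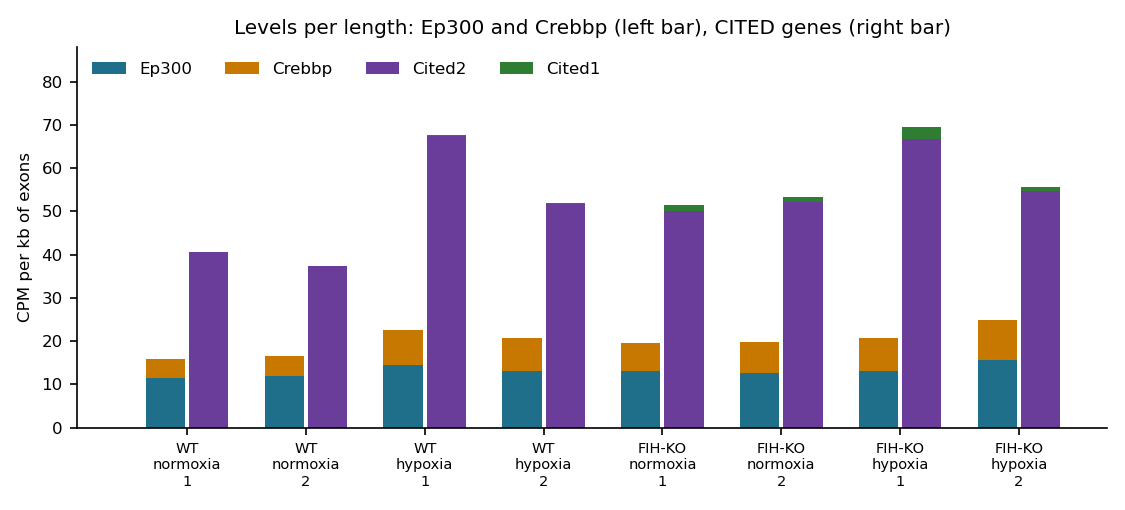
Level per kb of exons in each of the 8 libraries (CPM per kb, bars start at 0), with Ep300 and Crebbp stacked in the left bar of each pair and Cited2 and Cited1 in the right bar. The right bars, almost wholly Cited2, are 2.24 to 3.35 times as high as the left ones.

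Other genes of the same machinery were counted from lists, which were not tested as sets. Of all tested genes, 15.2% were called higher and 13% lower in FIH-KO cells in normoxia, and 14.1% and 13.9% in hypoxia. Hypoxia called 16.9% higher and 15.5% lower in WT cells, and 8.84% and 8% in FIH-KO cells. The counts of each list stand beside these shares. Among 14 other histone acetyltransferases and coactivators, all tested, FIH-KO cells had 1 higher and 3 lower in normoxia and 0 higher and 3 lower in hypoxia, with a median log2 fold change of -0.03 and -0.13 against -0.0025 and -0.03 over all tested genes. The genes lower in both oxygen conditions were the nuclear receptor coactivator Ncoa1 (-0.95 and -1.31, adjusted p = 0.0009 and 0.00012), the arginine methyltransferase Carm1 (-0.44 and -0.45, adjusted p = 0.033 and 0.028) and the Mediator subunit Med1 (-0.40 and -0.38, adjusted p = 0.022 and 0.030, edgeR). The gene of the list that was higher in normoxia, like Crebbp, was Ncoa3 (0.50, adjusted p = 0.0051, edgeR; named after its value was seen), and 10 of the 14 were not called there. Hypoxia raised 3 and lowered 2 of the 14 in WT cells and raised 1 and lowered 1 in FIH-KO cells. The acetyltransferase Kat2b fell in both genotypes (-0.67 in WT and -0.57 in FIH-KO cells, adjusted p = 0.016 and 0.0496), and Med1 rose in both (0.52 and 0.54, adjusted p = 0.0056 and 0.0085, edgeR).

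The opposing enzymes, 18 histone deacetylases and sirtuins of which 17 were tested, had 3 higher and 0 lower in FIH-KO cells in each oxygen condition (median 0.16 and 0.10). Of all tested genes 15.2% were higher and 13% lower in normoxia, and 14.1% and 13.9% in hypoxia. The class IIa deacetylase Hdac7 (0.56 and 0.59, adjusted p = 0.0041 and 0.0034) and Sirt2 (0.39 and 0.37, adjusted p = 0.029 and 0.037, edgeR) were higher in both. Under hypoxia 3 were higher and 5 lower in WT cells, and 2 higher and 2 lower in FIH-KO cells. Hdac7 fell by 0.74 in WT and by 0.71 in FIH-KO cells on the log2 scale and Hdac6 fell by 0.66 and by 0.50, whereas Hdac4 (0.74 and 0.50) and the mitochondrial Sirt3 (0.74 and 0.66) rose.

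The list of HIF subunits and hydroxylases, upstream of the coactivators, had 8 of 10 genes tested, with 2 higher and 2 lower in FIH-KO cells in either oxygen condition. Of all tested genes 15.2% were higher and 13% lower in normoxia, and 14.1% and 13.9% in hypoxia. One of the higher genes, Arnt2 (named after its values were seen), had means of 0.299 and 0.277 CPM in WT and 5.64 and 2.04 CPM in FIH-KO cells (normoxia and hypoxia). Arnt2 passed the filter on low counts only through its FIH-KO libraries, so its call is a description. Hif1an was one of the lower genes in both, and Arnt, the partner of HIF-α on DNA, was the other (-0.45 and -0.40, adjusted p = 0.011 and 0.021, edgeR). Hypoxia raised 3 and lowered 0 of them in WT cells and raised 4 and lowered 2 in FIH-KO cells, with the prolyl hydroxylases Egln1 (2.16 and 2.33) and Egln3 (1.40 and 1.84) and the ubiquitin ligase subunit Vhl (1.08 and 1.00) higher in both genotypes. Of 18 HIF target genes, 17 rose under hypoxia in WT and 16 in FIH-KO cells, with medians of 1.70 and 1.91. Ndrg1 (3.97 and 3.41), Ankrd37 (3.53 and 4.13), Adm (3.33 and 3.36) and Bnip3 (3.04 and 3.66) had the largest rises among those called in both genotypes with a mean of at least 50 counts, ranked by the smaller of the 2 values, beside 0.61 and 0.25 for Cited2. In FIH-KO against WT cells 2 HIF targets were higher and 2 lower in normoxia, and 5 higher and 2 lower in hypoxia (medians 0.01 and 0.28).

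The partners that CITED and p300 or CBP serve were counted last, beside the same shares of all tested genes (15.2% higher and 13% lower with FIH-KO in normoxia, 14.1% and 13.9% in hypoxia). Of 14 transcription factors known to bind CITED proteins 8 were tested, with 3 higher and 1 lower in FIH-KO cells in normoxia, 0 higher and 2 lower in hypoxia, and 1 higher under hypoxia in WT cells against 0 in FIH-KO cells. Named after their values were seen, the higher genes in normoxia were Smad3 (0.53, adjusted p = 0.0099), Smad2 (0.36, adjusted p = 0.026) and Smad4 (0.35, adjusted p = 0.025, edgeR), which carry TGF-β signals, and Smad3 was also the gene raised by hypoxia in WT cells (0.64, adjusted p = 0.0031, edgeR). The lower genes were Isl1, a homeodomain factor with means of 2.15 and 4.06 CPM in WT and 0.0298 and 0.126 CPM in FIH-KO cells (normoxia and hypoxia), and, in hypoxia, Pparg (-1.99, adjusted p = 0.0050, edgeR). Isl1 passed the filter on low counts only through its WT libraries, so its call is a description. Of 20 other activators that bind p300 or CBP 19 were tested, with 6 higher and 3 lower in FIH-KO cells in normoxia and 3 higher and 2 lower in hypoxia. Stat2 (1.23 and 1.22), which mediates interferon signals, and Nfe2l2 (0.74 and 0.87), which mediates the antioxidant response, were higher in both conditions, and the cell cycle factor Mybl2 (-0.66 and -0.85) was lower. Hypoxia raised 7 and lowered 1 in WT cells and raised 4 and lowered 0 in FIH-KO cells, with Klf4 (2.45 and 1.31), Atf4 (1.11 and 1.22) and Crem (0.75 and 0.79) higher in both genotypes. The interaction term called 0 genes in every list in the main edgeR fit, as it did across all genes. With other settings, 4 HIF targets were called with DESeq2 and 6 by edgeR with no filter on low counts. Of the other activators that bind p300 or CBP, at most 1 was called under the settings other than leaving out a library.

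Over the 8 libraries, which share their groups and so are not independent, the log2 CPM of Crebbp had a Pearson correlation of 0.913 with Ep300 and of 0.854 with Cited2, and Ep300 and Cited2 had one of 0.689. Cited1 had 0.573 with Crebbp, 0.520 with Cited2 and 0.378 with Ep300. The genes most like each member were looked for among those with a mean of at least 50 counts. Closest to Crebbp were Dnajb2, Zfp715 and Gopc (0.983, 0.982 and 0.982), and 19 genes reached 0.95. Their log2 fold changes, which the choice by correlation fixes in direction, were 0.61, 0.68 and 0.47 for FIH-KO in normoxia and 0.77, 0.85 and 0.60 for hypoxia in WT cells. Closest to Cited2 were Gcc1, Oser1 and Abcc10 (0.976, 0.972 and 0.970), closest to Ep300 BC024063, Trip11 and Zfp74 (0.959, 0.944 and 0.944), and closest to Cited1 Gpr107, Mmp11 and Rassf8 (0.993, 0.988 and 0.987). For Cited1 119 of the 10576 genes compared reached 0.95.

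The genes next to each member were read as well, since the FIH-KO cells had been cloned. Distances, and the choice of the nearest genes, rest on the lower chromosome coordinate of each gene. For genes on the minus strand, such as Crebbp and Cited1, that is the end of the transcript. Around Ep300 0 of the 6 nearest tested genes were called in FIH-KO against WT cells in either oxygen condition (median log2 fold change -0.06 and -0.03). On chromosome 15, 17.1% of 551 tested genes were called higher with FIH-KO in normoxia and 15.6% in hypoxia (medians 0.05 and 0.09). Around Crebbp 3 of 6 were higher with FIH-KO in normoxia, Slx4 (0.35), Nlrc3 (1.07) and Cluap1 (0.66), and 1 in hypoxia, Nlrc3 (0.81), all within 188 kb. On chromosome 16 as a whole, 27.8% of 424 tested genes were called higher with FIH-KO in normoxia, and 25.2% in hypoxia, with medians of 0.23 and 0.18, against 15.2% and 14.1% of all tested genes. Under hypoxia in WT cells 0 of the 6 neighbours of Crebbp were called (median -0.04), beside 32.4% of all tested genes in either direction. The neighbours of Ep300 had 1 higher and 2 lower there, and those of Cited2 1 higher and 1 lower. For Cited1 and Cited4 it was 0 higher and 1 lower each.

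Around Cited2 5 of the 6 neighbours were higher with FIH-KO in normoxia, Gm20655 (2.04), Txlnb (1.61), Ccdc28a (1.47), Heca (0.64) and Reps1 (0.33), and the first pair also in hypoxia (2.43 and 2.01). On chromosome 10, 23.9% of 670 tested genes were higher in normoxia and 22.5% in hypoxia (medians 0.19 and 0.14). Around Cited1 the retrotransposon-derived Rtl5, 181 kb away, was higher in both oxygen conditions (4.07 and 3.85), as was Phka1 at 264 kb (0.56 and 0.46). For Rtl5 the hypoxia difference had a standard error of 1.06 in WT and of 0.44 in FIH-KO cells. Whether Rtl5 passed the filter on low counts through its WT libraries was not examined, so its call is a description. Ercc6l was lower in normoxia (-0.61), and Hdac8, Rps4x and Pin4, all within 128 kb of Cited1, were not called. On the X chromosome 20.4% of 470 tested genes were higher in normoxia and 24.3% in hypoxia, with medians of 0.07 and 0.14. Around Cited4, Scmh1 was higher with FIH-KO in both oxygen conditions (2.06 and 1.00) and Zfp69 in hypoxia (2.15). On chromosome 4, 12.3% of 818 tested genes were higher in normoxia and 13.3% in hypoxia. The part of these shifts along chromosomes in the differences of the members was not tested.

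**Figure D4:**
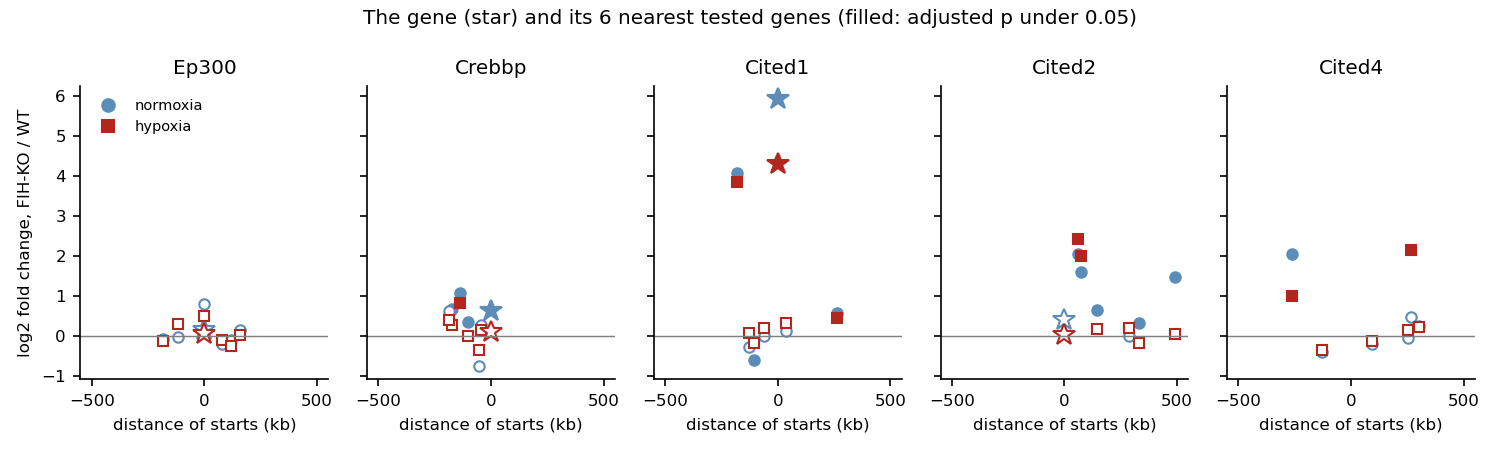
Log2 fold change of FIH-KO against WT cells for each member (star) and its 6 nearest tested genes, with circles for normoxia, squares for hypoxia and filled symbols for an adjusted p under 0.05. The horizontal axis is the distance in kb between the lower chromosome coordinates of the genes, whatever their strand. Cited4 was not tested and has no star, and 0 neighbours of Ep300 are filled. The highest neighbour of Cited1 is Rtl5 (4.07 and 3.85), whose call is a description.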

How the data were processed

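Total RNA of the 8 libraries was prepared with a stranded mRNA kit. The paper names STAR with GRCm39, whereas the submitters' processing notes name an earlier mouse build beside GRCm39. The deposited values were raw counts per gene, which had not been normalized. The annotation release and strand setting of the counting are not given in the sources used here. The submitters' processing notes also name DESeq2. All 8 library columns were used.

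The analysis was run with edgeR 4.0.16 (R 4.3.3). It consisted of a filter by group (filterByExpr, 13933 genes left), TMM factors of 0.983 to 1.02, 1 quasi-likelihood model with 4 group means, and Benjamini-Hochberg adjustment over all tested genes in each of 5 comparisons. The biological coefficient of variation was 11.7%, and replicate libraries were further apart than counting alone allows (chi-square per degree of freedom 6.15 to 25.7). Positions and exon lengths came from GENCODE (52610 identifiers, 97.97%, matched). Alternatives were DESeq2 1.42.0, RLE and upper-quartile scaling, no filter beyond 1 read, a minimum of 10 counts in each library, a fit of only the 4 libraries compared, the replicate number as a block, and each library left out. The calls were tested on simulated data, in FIH-KO against WT cells in normoxia. There edgeR called 74 of 100 genes changed by 1 on the log2 scale, 30 of 100 changed by 0.6, and 9 of 13404 unchanged genes. Far fewer genes were changed there than the 3933 called in the data, so the adjusted threshold was stricter. These shares are therefore not the sensitivity of the test in the data, but a gene that did not pass may still have changed.

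Members and lists were chosen with earlier results of these data known. Besides the members and Hif1an, the text names up to 4 genes per list and kind of comparison that passed in both oxygen conditions, or both genotypes, in 1 direction with a mean of at least 50 counts, and the 3 genes most like each member. Neighbours, the marker genes of the cell type check, and genes said to be named after their values were seen, fall outside this rule. Plots were drawn with matplotlib 3.10.9.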

Additional observations from a re-analysis of the deposited data

How the results depend on the processing

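Over the 5 comparisons of the 4 tested members, 124 of 129 values kept their direction and their side of the threshold under the settings other than leaving out a library, and 5 passed the threshold only there. These were Ep300 under hypoxia in WT cells with only the 4 libraries in the fit (0.25) and Cited2 in FIH-KO against WT cells in normoxia with DESeq2 (0.39), with no filter (0.41), with only the 4 libraries (0.39) and with the replicate block (0.40, adjusted p = 0.028, edgeR). Whether the replicate numbers pair the samples is not known. Deviations from the group means correlated by over 0.1 in 2 of 6 pairs of groups (range -0.010 to 0.19, highest between FIH-KO hypoxia and WT hypoxia). These correlations cannot decide whether replicates shared a batch. The block changed no other call of a member. Requiring at least 10 counts in every library removed Cited1 from the test by construction and left 1 member called in normoxia and 0 in hypoxia between genotypes.

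When 1 library was left out, 144 of 160 values held, 3 lost the threshold, 4 gained it and 9 changed sign, and those that changed sign had not been called. The log2 fold changes ranged as follows between genotypes. For Ep300 they were -0.0698 to 0.22 in hypoxia, and -0.22 to 0.10 for the difference between oxygen conditions. For Crebbp they were 0.53 to 0.64 in normoxia and -0.0333 to 0.28 in hypoxia. For Cited2 they were 0.31 to 0.43 in normoxia and -0.15 to 0.26 in hypoxia. The difference between oxygen conditions was -0.64 to -0.31 for Crebbp and -0.54 to -0.10 for Cited2. Under hypoxia in FIH-KO cells the values were 0.15 to 0.45 for Crebbp, 0.021 to 0.30 for Ep300, 0.13 to 0.38 for Cited2 and -0.54 to 1.05 for Cited1, and in WT cells 0.37 to 0.79 for Cited2. The count of members called was 1 to 3 between genotypes in normoxia, 1 to 2 under hypoxia in WT cells and 0 to 1 in FIH-KO cells. Each of these fits also had fewer libraries, and the cause of the changes was not tested.

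Over all genes the interaction of genotype and oxygen called 0 genes with edgeR, 40 with DESeq2, 143 with no filter and 5 with the replicate block, and hypoxia in FIH-KO cells called 2345 genes, or 1289 with only the 4 libraries. With 1 library left out, the genes called were 1735 to 4672 between genotypes in normoxia, 2170 to 3887 in hypoxia, 2124 to 5270 under hypoxia in WT cells, 1097 to 2604 in FIH-KO cells and 0 to 39 for the interaction. With 2 libraries per group the intervals are wide, and the few Cited1 counts in WT cells leave the size of its difference wide.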
